A study of Homo sapiens with 3 samples.

Results

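The long intron clusters of MATR3 (matrin 3) were the rows of the deposited cluster tables that carried the authors' intron class and spanned at least 150 nt. They were chosen by their measured length, which follows from where reads and T-to-C changes were found, so length, reads and conversion are given here as description only. There were 3424 such clusters among 282266 intron clusters and 388807 clusters of all classes. Replicate 1 held 1120, replicate 2 held 1461 and replicate 3 held 843, or 1.16%, 1.53% and 0.935% of the intron clusters of each. They were set against 179518 short intron clusters of 30 to 50 nt, within each replicate.

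The 3 libraries were made from untreated HEK293 cells of wild-type genotype, a line derived from human embryonic kidney. RNA was recovered with an antibody against MATR3 by PAR-CLIP, in which cells take up a photoreactive uridine analogue and crosslinked uridines are later read as C. The labels name 3 biological replicates of this single group, and no control library, input or MATR3-deficient PAR-CLIP library was analysed here. Clusters were listed separately for each replicate and held 1649124, 1506682 and 1532602 reads in all, which is not the depth of the whole libraries. Of these the long intron clusters held 6.74%, 8.43% and 6.04% of the reads in introns, a larger share than their share of clusters.

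MATR3 is an abundant protein of the nuclear matrix that binds RNA through tandem RNA recognition motifs and also has zinc fingers. It is known to bind pyrimidine-rich intronic RNA, often together with PTBP1, the polypyrimidine tract binding protein, and to repress the splicing of nearby exons. The short motif AUCUU has been described for it. A long cluster is a stretch of intron over which overlapping reads were joined, so it can hold many crosslinked positions.

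Long clusters of all 3 replicates shared at least 1 base, on the same strand, at 6 loci. The bases common to the 3 replicates are printed for 5 of these loci, because they are the places where a long extent was seen every time. They are given 5′ to 3′ on the RNA strand in DNA letters of hg38, with runs of at least 6 pyrimidines in capitals. The positions are chr4:2943169-2943362 on the minus strand for NOP14, chr16:88581430-88581456 on the plus strand for ZC3H18 and chrX:153344188-153344226 on the plus strand for ZNF275. POLA1 lies at chrX:24859289-24859434 and ISG15 at chr1:1005128-1005261, both on the plus strand.
NOP14: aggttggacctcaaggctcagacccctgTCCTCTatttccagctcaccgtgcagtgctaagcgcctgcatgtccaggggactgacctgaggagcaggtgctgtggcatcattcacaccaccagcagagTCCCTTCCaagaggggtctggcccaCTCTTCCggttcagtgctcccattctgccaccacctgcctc
ZC3H18: aaattgtttaaaccacatagcttgtgc
ZNF275: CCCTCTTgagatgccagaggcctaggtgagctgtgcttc
POLA1: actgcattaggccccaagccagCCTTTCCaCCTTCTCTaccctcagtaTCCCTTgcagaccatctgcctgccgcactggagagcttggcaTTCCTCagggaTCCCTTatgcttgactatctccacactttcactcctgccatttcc
ISG15: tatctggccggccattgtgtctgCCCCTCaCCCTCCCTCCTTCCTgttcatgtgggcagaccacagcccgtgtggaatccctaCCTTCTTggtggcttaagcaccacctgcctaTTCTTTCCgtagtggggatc

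The NOP14 stretch of 194 nt lay in intron 13 of 17, 710 nt from the 5′ splice site and 817 nt from the 3′ splice site (GENCODE 44). NOP14, a protein needed to assemble the small ribosomal subunit, had 151, 185 and 84 reads there in replicates 1, 2 and 3, and its clusters spanned 294, 402 and 204 nt. The conversion locations, which are the T positions with a T-to-C change, numbered 32, 46 and 22. NOP14 had the most reads of the 6 loci when summed over replicates, at 420, though not in replicate 3, and the same intron segment was covered each time.

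POLA1 encodes the catalytic subunit of DNA polymerase alpha. Its 146 nt lay in intron 34 of 36, which is 44328 nt long, and held 46, 103 and 39 reads in clusters of 161, 333 and 171 nt. C and T made up 66.4% of its bases, in 5 runs of at least 6 pyrimidines. Replicate 2 was high in reads and in extent at NOP14 and at POLA1.

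ZC3H18, a partner of the nuclear cap-binding complex, shared 27 nt in intron 2 of 17, with 48, 89 and 108 reads. ZNF275, a zinc finger gene, shared 39 nt in intron 2 of 3, with 83, 54 and 73 reads. At both loci the clusters of single replicates were 159 to 237 nt long. Those of 2 replicates overlapped broadly, and 1 replicate was offset, replicate 1 at ZC3H18 and replicate 2 at ZNF275, which left a small common part. The ZC3H18 stretch had no run of 6 pyrimidines, and 51.9% of its bases were C or T.

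ISG15, an interferon-induced protein related to ubiquitin, had 49, 65 and 58 reads over a common 134 nt. The authors' tables class the site as intron, while it lay outside the introns of the canonical transcript in GENCODE 44. Its longest pyrimidine run was 15 nt. The sixth locus, in JRK, had 59, 61 and 135 reads over a common 165 nt, and its sequence is not shown. ATCTT, the DNA form of AUCUU, was absent from the common bases of all 6 loci.

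The longest cluster of each replicate was not matched by a long cluster in the others. In replicate 2 it lay in intron 11 of 11 of RAE1, an mRNA export factor, at chr20:57375127-57376069 on the plus strand. It spanned 943 nt with 585 reads, 279 distinct reads and 155 conversion locations, and C and T made up 62.6% of it. Within that stretch, replicate 1 had 1 cluster of 96 nt with 41 reads and replicate 3 had 1 of 63 nt with 10 reads.

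In replicate 3 the longest cluster spanned 690 nt of intron 1 of FARSB, a subunit of phenylalanyl-tRNA synthetase, at chr2:222650045-222650734 on the minus strand. It held 444 reads and 2 copies of ATCTT, and no cluster of replicates 1 or 2 lay in it. In replicate 1 it spanned 564 nt of intron 1 of CARS1 (CARS in the tables), the cysteinyl-tRNA synthetase, at chr11:3056327-3056890 on the minus strand. That cluster held 287 reads with 51.4% C and T, and replicate 3 had 1 cluster of 44 nt with 27 reads inside it. A great length in 1 replicate therefore did not go with a great length in the others at these 3 places.

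As a class, long clusters were densely covered. The median long cluster held 58.5 reads ± 6.73 and 23.7 distinct reads ± 1.53, against 7.67 reads ± 0.58 and 3 distinct reads in short clusters (SD, n = 3). Per 100 nt, the median was 12.6 distinct reads ± 0.51 in long and 7.06 ± 0.59 in short clusters. The extent thus rested on more reads per base as well as on more bases, and no long cluster had fewer than 6 distinct reads.

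Conversion was spread over many positions in long clusters. The median number of conversion locations was 18 ± 1 in long clusters and 2 in short ones, and these covered 32.9% ± 1.45 of the T positions in long against 21.5% ± 1.06 in short clusters (SD, n = 3). The rate per T was 10.4% ± 0.46 in long and 11.4% ± 0.25 in short clusters. Reads with a T-to-C change made up 76.5% ± 0.24 in long and 91.0% ± 0.39 in short clusters. Every listed cluster had at least 4 reads and 2 conversion locations, and the part of these limits in the differences was not tested.

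Lengths fell off without a break at 150 nt. Median length within the long class was 178.5, 182 and 179 nt, and 371, 529 and 278 clusters reached 200 nt while 58, 93 and 57 reached 300 nt. Just inside the limit, clusters of the first 5 lengths from 150 nt numbered 122, 166 and 97 with median reads of 44, 37 and 46. Just outside, clusters of the 5 lengths below 150 nt numbered 139, 168 and 113 with median reads of 44, 34.5 and 42. Replicate 2 had the most long clusters and replicate 3 the fewest at 150, 200 and 300 nt.

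**Figure D1:**
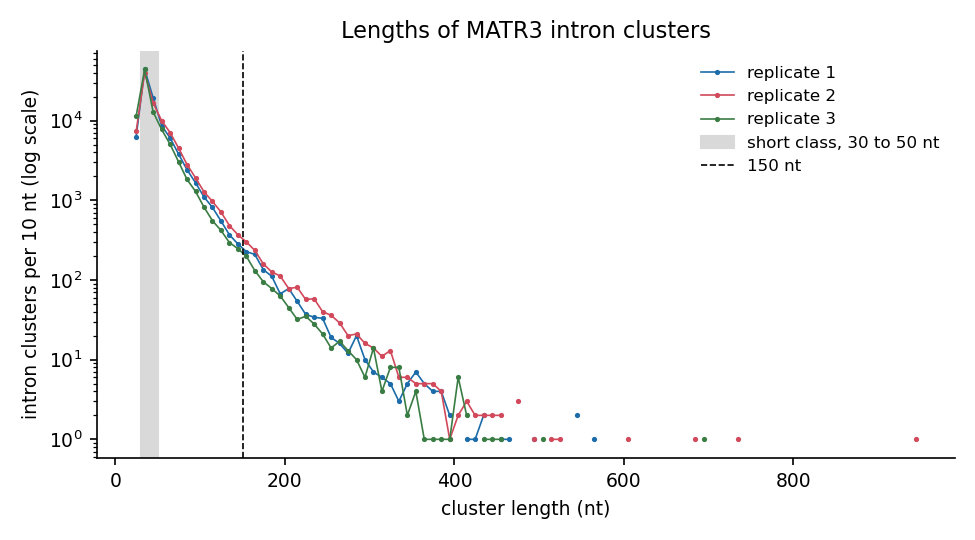
Number of intron clusters (log scale) per 10 nt of cluster length (nt) in the 3 replicates, with bins that hold no cluster left blank. The band marks the short class and the dashed line marks 150 nt, where the 3 curves fall smoothly from the peak below 50 nt towards the longest clusters of 564, 943 and 690 nt.

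Long clusters were richer in pyrimidines than the sequence around them. That sequence was taken by distance alone, so parts of it can lie in exons or in other clusters. C and T made up 59.1%, 57.9% and 59.7% of bases in replicates 1, 2 and 3, against 54.2%, 53.9% and 54.5% in equally long flanking stretches taken 200 nt away on both sides. The 2 sets of values did not overlap, and the difference was 4.71 percentage points ± 0.64 (SD, n = 3; higher in 3 of 3 replicates; exact two-sided sign-flip p = 0.25, adjusted 0.25). That p is the smallest that 3 replicates allow, and the same holds for each of the 8 differences tested here, so none could pass 0.05. The excess lay in C, with 27.8% ± 0.38 in clusters and 24.2% ± 0.25 beside them, more than in T, with 31.1% ± 0.66 and 29.97% ± 0.23. Every listed cluster held at least 2 conversion locations, and so T, which flanks need not. The part of this in the difference was not tested.

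Uninterrupted runs of pyrimidines followed the same pattern. Runs of at least 10 nt occurred 5.11 ± 0.56 times per 1000 nt in long clusters and 3.14 ± 0.11 times beside them, while purine runs of that length were rarer inside, at 0.81 ± 0.090 against 1.30 ± 0.019 (SD, n = 3). A pyrimidine run was present in 62.9% ± 4.21 of long clusters. Short clusters had 4.51 ± 0.37 such runs per 1000 nt and 2.53 ± 0.013 beside them, so both classes had more of them than their flanks.

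**Figure D2:**
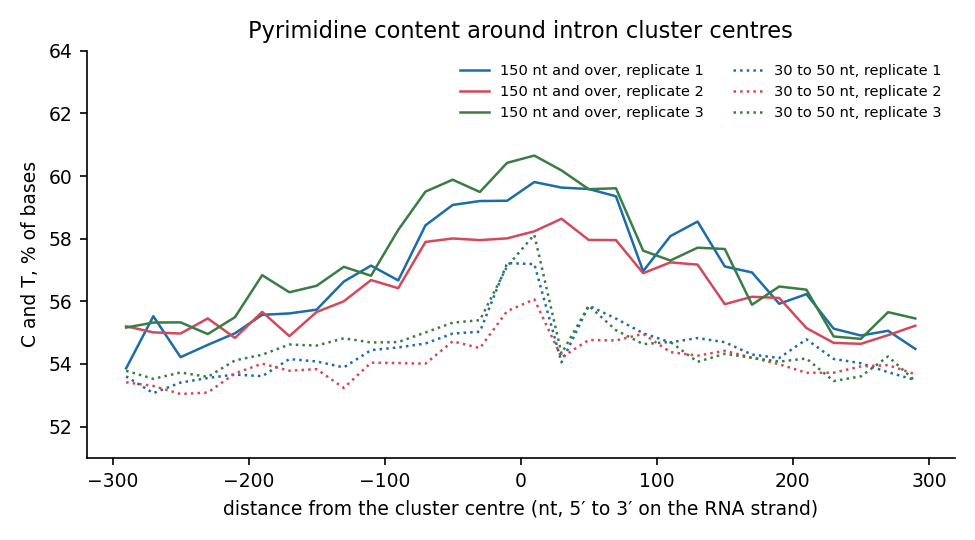
Share of C and T (% of bases, axis from 51 to 64) in 20-nt bins by distance from the cluster centre (nt, on the RNA strand), for long clusters (solid) and every 20th short cluster (dotted) of each replicate. Long clusters form a broad rise that stands at 59.8%, 58.2% and 60.7% just past the centre, and short clusters a narrow one of 57.2%, 56.1% and 58.1% at the same place.

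Against short clusters the pyrimidine share was also higher, by 1.61, 1.90 and 2.21 percentage points in replicates 1, 2 and 3. Short clusters had 57.5%, 56.0% and 57.5%, above the 53.8% ± 0.15 of their own flanks. Replicate 2 was lowest in both classes, and the mean difference was 1.91 ± 0.30 (SD, n = 3; exact sign-flip p = 0.25, adjusted 0.25). It rested on the clusters compared. The difference was 3.26 ± 0.45 against short clusters of the same genes. It was 0.573 ± 0.59 among clusters with at least 5 distinct reads and 0.232 ± 0.64 against clusters of 20 to 29 nt, both within the spread and above 0 in 2 of 3 replicates. Long clusters had less T than short ones, with a difference of -0.783 percentage points ± 0.18, which turned to 0.130 ± 0.26, within the spread, when short clusters came from the same genes. At least 2 conversion locations, and so T, were present in each cluster whatever its length. That is a denser demand on a short cluster, and its part in these differences was not tested.

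Base content moved gradually with length. From 30 to 50 nt up to 250 nt and over, A went from 21.2% ± 0.17 to 18.8% ± 0.27 and C from 25.1% ± 0.069 to 28.8% ± 0.22, while CG dinucleotides went from 12.3 ± 0.64 to 19.3 ± 1.002 per 1000 nt (SD, n = 3). CG was denser beside the long clusters too, at 19.6 ± 0.27 per 1000 nt against 13.6 ± 0.46 beside short ones. Long clusters as a class had 17.0 ± 1.23. The CG density thus differed between the surroundings of the classes and was not higher inside long clusters than beside them.

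ATCTT was denser in long clusters than beside them and sparser than in short clusters. It occurred 2.13, 1.89 and 2.10 times per 1000 positions in long clusters of replicates 1, 2 and 3, and 1.56, 1.47 and 1.42 times in the flanks. The log2 ratio was 0.46 ± 0.10 (SD, n = 3; higher in 3 of 3; exact sign-flip p = 0.25, adjusted 0.25). Short clusters had 2.495, 2.23 and 2.54 per 1000, for a log2 ratio of long over short of -0.25 ± 0.03 with the same p. That ratio was -0.053 within the same genes and -0.48 among clusters with at least 5 distinct reads. Short clusters had 1.65 ± 0.046 per 1000 in their own flanks, so they too were denser than their surroundings, and the flanks of long clusters were the sparser ones. Because of their length, 31.4% ± 1.56 of long and 7.72% ± 0.48 of short clusters contained ATCTT (SD, n = 3). Every listed cluster held at least 2 conversion locations, and so T, which flanks need not. That is a denser demand on a short than on a long cluster, and its part in these densities was not tested.

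All 1024 5-mers were then ranked by density, as description. Against the flanks, 92 (8.98%) were denser by over 25% in each replicate and 179 (17.5%) had a density in the flanks that was higher by as much. Of the 32 5-mers made of C and T only, 24 were among the denser ones. TCTTC led with 4.04 ± 0.30 per 1000 positions inside and 2.13 ± 0.068 outside, a log2 ratio of 0.92 ± 0.09 (SD, n = 3). Next came CTTCT (log2 0.90), CCTTC (log2 0.89), CTTCA (log2 0.82), CTTCC (log2 0.79), CTCTT (log2 0.75), CTTTC (log2 0.75), TCCTT (log2 0.74), CTCTC (log2 0.71) and TTCTC (log2 0.71). These words overlap one another, so they are not separate motifs, and ATCTT ranked 69. Each cluster held conversion locations, and so T, which flanks need not, and the part of this in the ranking was not tested.

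Not every pyrimidine word was denser. TTTTT was rarer in long clusters than beside them, at 3.82 ± 0.27 against 8.42 ± 0.044 per 1000 positions (log2 -1.14 ± 0.09), and AAAAA was the most depleted word, at 0.98 ± 0.11 against 3.04 ± 0.093 (log2 -1.64 ± 0.20; SD, n = 3). Short clusters had 4.69 ± 0.51 for TTTTT and 1.06 ± 0.034 for AAAAA. Low densities of both words were thus not particular to long clusters. Of the 32 C and T words, 31 had a mean log2 ratio above 0 against the flanks. The 10 leading words all held both C and T, and CTTCA also held A.

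Against short clusters, 118 5-mers (11.5%) were denser and 57 (5.57%) were rarer by the same rule. Of the denser ones 101 contained CG, and of the rarer ones 52 contained TA. Among all 1024 words, 244 contain CG and 244 contain TA. The leading word, ACGCG (log2 1.204 ± 0.33), was seen as few as 11 times in the long clusters of a replicate. CGCGT (log2 1.13), CGTCG (log2 1.11), CCGCG (log2 1.09), CCGCA (log2 0.99), ACGAC (log2 0.98), CGCGC (log2 0.96), CGACT (log2 0.96), TCGCG (log2 0.93) and CGCCG (log2 0.92) followed. Among C and T words, 1 passed this rule, and ATCTT ranked 856. Of the 92 words denser than in the flanks, 8 contained CG. CG itself was denser beside long than beside short clusters, at 19.6 ± 0.27 against 13.6 ± 0.46 per 1000 nt (SD, n = 3).

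Long clusters were found in other replicates more often than short ones when 1 base was asked for. The centre base of a long cluster lay in a cluster of another replicate, averaged over the other 2, in 15.1%, 15.1% and 13.5% of long and 6.77%, 6.39% and 8.20% of short clusters. The difference was 7.44 percentage points ± 1.90 (SD, n = 3; higher in 3 of 3; exact sign-flip p = 0.25, adjusted 0.25). It was 0.127 ± 1.56 among clusters with at least 5 distinct reads, a minimum that removes short clusters only, which is within the spread, and 3.27 ± 2.18 against clusters of 51 to 100 nt. Overlapping clusters can count from both replicates, so the 3 values are not fully separate. Moved by 1000 nt, 6.32% ± 0.35 of long and 2.77% ± 0.29 of short centres still fell in a cluster, and the difference beyond that level was 3.90. As a ratio of found to moved, long clusters were the lower class, at 2.31 ± 0.18 against 2.56 ± 0.071 (SD, n = 3).

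In at least 1 other replicate the centre was found for 27.5%, 27.7% and 24.8% of long clusters, beside 15%, 14% and 16.7% of all intron clusters of replicates 1, 2 and 3. The centre was in both others for 2.68%, 2.53% and 2.14%. By this measure most long clusters were seen in a single replicate. Any overlap with a cluster of another replicate, which length itself favours, was seen for 36.8% ± 6.51 per pair of replicates (SD, n = 3). When long clusters were moved as above, that share was 22.7% ± 0.99. The ratio of found to moved was 1.61 ± 0.22 for long and 1.96 ± 0.067 for short clusters (SD, n = 3). A share per pair is not the share found in at least 1 other replicate, which is not given here for any overlap. Median distinct reads were 23, 26 and 22 in long clusters whose centre was found elsewhere and 22, 23 and 26 in those not found, with no common direction. The 2 sets had median lengths of 183 nt ± 5.20 and 179 nt ± 0.58, and pyrimidine shares of 59.5% ± 1.251 and 58.7% ± 0.80 (SD, n = 3).

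**Figure D3:**
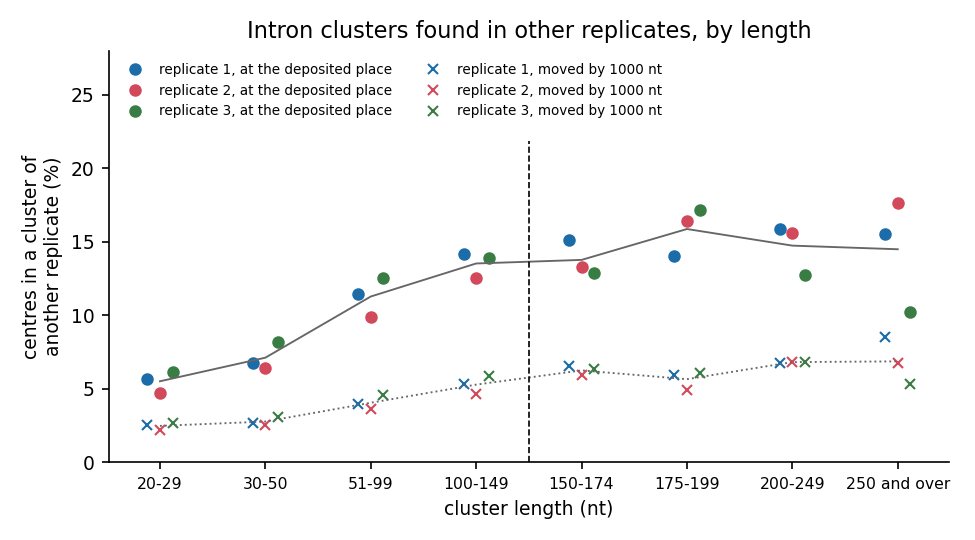
Share (%) of cluster centres that lay in a cluster of another replicate, by cluster length (nt), at the deposited place (circles, mean as solid line) and moved by 1000 nt (crosses, mean as dotted line). The share goes from 7.12% at 30 to 50 nt to 13.5% in the class just below 150 nt and is between 13.8% and 15.9% in the 4 classes right of the dashed line at 150 nt.

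Where a long cluster was found again, its partner was often shorter. Partner clusters had median lengths of 111.5, 82 and 124 nt for long clusters of replicates 1, 2 and 3, against 47, 43 and 52 nt for short ones. Partners of at least 150 nt made up 28.7%, 14.7% and 38.8% for long and 3.88%, 2.35% and 5.46% for short clusters. The difference was 23.5 percentage points ± 10.5 (SD, n = 3), higher in 3 of 3 replicates. Its exact sign-flip p was 0.25 (adjusted 0.25), but the difference is read as description only. A pair of overlapping long clusters counts from both of its replicates, and length chose the members. Replicate 2 had the lowest share of long partners. Its partners lay in replicates 1 and 3, which held fewer long clusters than replicate 2, at 1120 and 843 against 1461. The part of these numbers in the order of the shares was not tested.

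Overlap of long with long clusters was rare in absolute terms. Of the long clusters of replicate 1, 6.07% overlapped a long one of replicate 2 and 6.16% one of replicate 3. The shares were 4.65% and 3.08% for replicate 2 with 1 and 3, and 8.30% and 5.34% for replicate 3 with 1 and 2. Overlap with long clusters in both other replicates was seen for 6, 7 and 7 long clusters, or 20 in all.

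Repeated sequence was scarce in long clusters. In windows of 200 nt around their centres, 1.95% ± 0.49 of 20-mers had at least 10 copies in hg38, against 13.4% ± 0.28 in windows moved by 1000 nt (SD, n = 3). Around short clusters the values were 7.67% ± 0.30 and 14.9% ± 1.12, in windows of which the cluster filled at most 50 nt. Within the central 30 nt, repeated 20-mers made up 1.65% ± 0.25 in long and 4.85% ± 0.29 in short clusters. All 3 replicates were lower in long than in short clusters, and both classes were below their moved windows.

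Alu elements, the most numerous short repeats of human introns, derive from 7SL RNA, and antisense copies bring long T-rich stretches into introns. Windows antisense to 7SL made up 1.14% ± 0.47 at long clusters and 9.75% ± 0.13 in the moved windows, and at short clusters 4.94% ± 0.39 and 9.67% ± 0.99 (SD, n = 3). In sense the values were 0.197% ± 0.075 and 4.998% ± 0.30 for long and 1.66% ± 0.71 and 4.96% ± 0.11 for short clusters. How reads that match several places were treated is not given in the sources used here, and its part in these shares and in the scarcity of TTTTT and AAAAA was not tested. This measure was added after the data were seen and is given without a test.

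**Figure D4:**
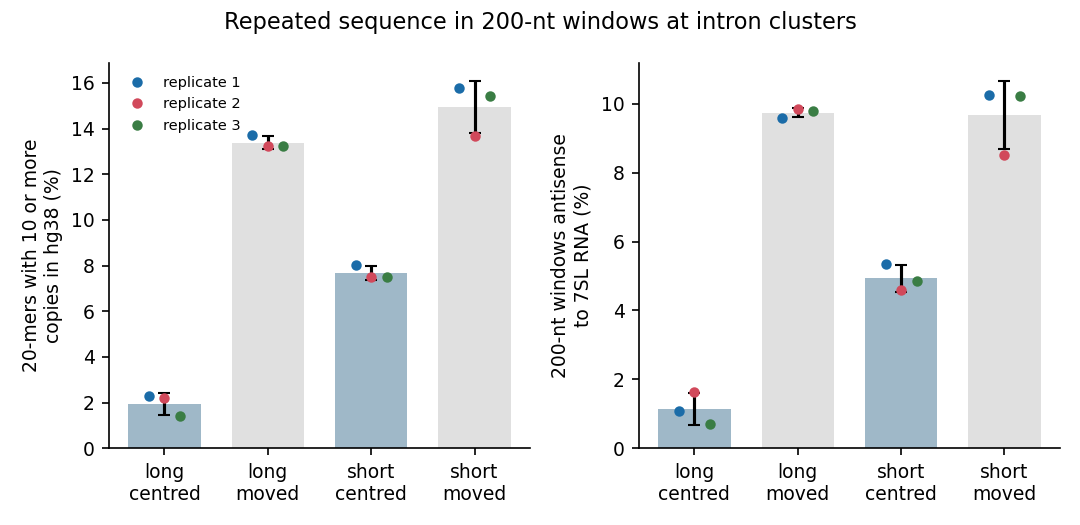
Left, share of 20-mers with at least 10 copies in hg38 (%), and right, share of 200-nt windows antisense to 7SL RNA (%), at long and short cluster centres and in windows moved by 1000 nt. Bars are means over 3 replicates with SD as error bars and points are replicates, and long centred windows are lowest in both panels at 1.95% and 1.14%. A short cluster fills at most 50 nt of its window.

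Long clusters lay nearer to exons and to the starts of genes. The centre was within 500 nt of an annotated exon of the same strand in 27.7%, 31.6% and 33.8% of long and 22.8%, 23.6% and 24.6% of short clusters. The groups did not overlap, and the difference was 7.33 percentage points ± 2.24 (SD, n = 3; higher in 3 of 3; exact sign-flip p = 0.25, adjusted 0.25). Part of the long clusters reached into an exon of some GENCODE 44 transcript, 12.2% ± 1.16 against 6.19% ± 0.32 of short ones, although classed as intron, and a longer stretch touches an exon more easily wherever it lies. Without these the difference was 2.77 ± 1.90, and among clusters with at least 5 distinct reads 4.44 ± 2.07. Over 5000 nt from the gene start it was 4.33 ± 3.47 (SD, n = 3). Each of these was above 0 in 3 of 3 replicates, with a spread that was large beside the difference.

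The introns and genes that held them were shorter. The gap between exons around a long cluster had a median of 6404.5 nt ± 686, against 10138 nt ± 594 for short clusters, and the host genes had median lengths of 55785 nt ± 6986 and 92683 nt ± 3593 (SD, n = 3). Within 5 kb of the gene start lay 24.7% ± 3.11 of long and 13.7% ± 0.80 of short clusters. The first 20% of the gene's length held 34.9% ± 0.49 of long and 28.5% ± 0.49 of short clusters, and the last 20% held 11.8% ± 0.93 and 12.5% ± 0.34. Transcript abundance was not measured here, so nascent or total RNA per intron and binding per RNA cannot be told apart.

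Long clusters were spread over 23 chromosomes, with 556, 748 and 435 on the plus strand. Another long cluster followed within 1000 nt for 64, 87 and 61 of the 1120, 1461 and 843 long clusters, and within 200 nt for 21, 28 and 18. The smallest gaps were 1, 3 and 0 nt, and no comparison was made with scattered placement.

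Most genes with a long cluster had one in only 1 replicate. Of 10393 genes with an intron cluster in any replicate, 1777 (17.1%) had a long one in any replicate and 157 (1.51%) had one in all 3. A further 447 had one in 2 replicates and 1173 in 1. Genes with long clusters in all replicates had many intron clusters of every length, with a median of 32.7 per replicate against 4.33 for all genes, and the part of that number in the count was not tested.

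ANKRD11 (chr16:89267630-89490561, minus strand), a chromatin regulator, led with 18, 14 and 16 long clusters in replicates 1, 2 and 3. They made up 6.38% ± 0.86 of its intron clusters (SD, n = 3), and the longest spanned 374 nt. TBCD (chr17:82752042-82945914, plus strand), a tubulin folding cofactor, had 8, 8 and 5, or 3.15% ± 0.75 of its intron clusters. ANKRD11 was above the other genes in every replicate, and its lowest count exceeded the highest of any other gene named.

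The other genes named varied between replicates. PRRC2B (chr9:131373636-131500197, plus strand) had 2, 8 and 5 long clusters, and GRB10 (chr7:50590063-50793462, minus strand), an adapter of insulin receptor signalling, had 7, 10 and 1. THSD4 (chr15:71096952-71783383, plus strand), a matrix protein gene, had 6, 3 and 3. RANBP3 (chr19:5916139-5978142, minus strand), a nuclear export cofactor, had 4, 5 and 2. GRB10 showed the widest range, with its lowest count in replicate 3, the replicate with the fewest long clusters.

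SLC7A1 (chr13:29509414-29595688, minus strand), a transporter of cationic amino acids, had 2, 4 and 5, and RPRD1B (chr20:38033725-38127780, plus strand), which binds the tail of RNA polymerase II, had 4, 2 and 5. HUWE1 (chrX:53532096-53686752, minus strand), a ubiquitin ligase, had 4, 2 and 4, and SLC38A1 (chr12:46183063-46270017, minus strand), a glutamine transporter, had 5, 2 and 3, on a level with BCAT1 and MED15. As a share of each gene's intron clusters, RPRD1B was highest of the 10, at 6.96% ± 2.23, and THSD4 lowest, at 2.24% ± 0.95 (SD, n = 3). Given these spreads, the order below TBCD is not settled by 3 replicates.

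**Figure D5:**
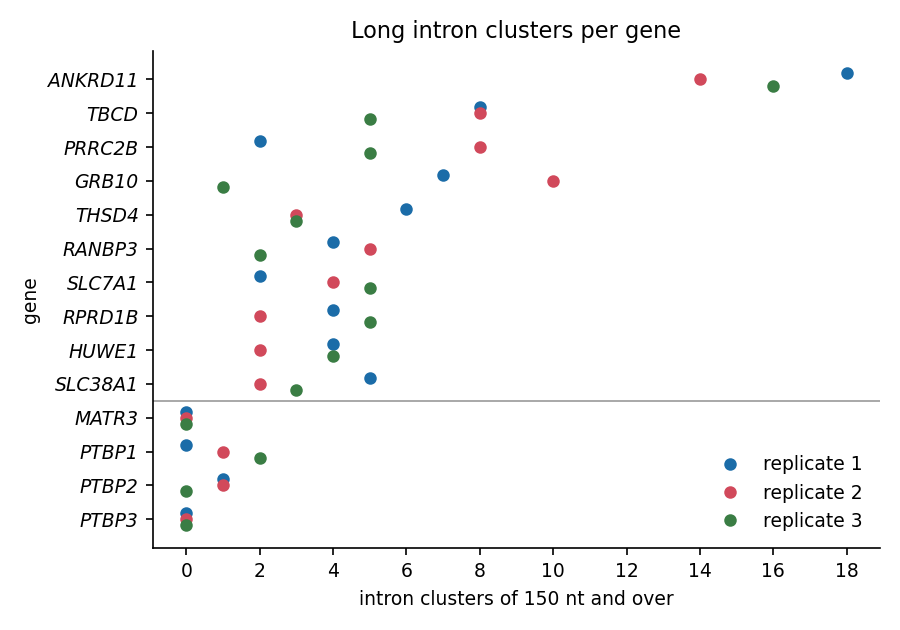
Number of long intron clusters in each replicate for the 10 leading genes (above the line) and for MATR3 and the PTBP genes (below it). The 3 points of ANKRD11 at 18, 14 and 16 lie apart from all others, and MATR3 and PTBP3 are at 0 in each replicate.

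MATR3 (chr5:139273752-139331671, plus strand) itself had no long intron cluster, although it had 21, 23 and 29 intron clusters. PTBP1 had 0, 1 and 2 long clusters among 11, 7 and 17 intron clusters, and PTBP2, its neuronal paralogue, had 1, 1 and 0 among 30, 29 and 39. PTBP3 had none among 9, 4 and 9. With so few intron clusters, a share of long ones below the 1.21% ± 0.30 of all intron clusters (SD, n = 3) was not detectable in a single gene.

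Splicing regulators were examined as a list of 40 genes, of which all but SRSF2 had an intron cluster. A long cluster was present in any replicate in 17, or 43.6%, beside 17.1% of all genes with an intron cluster, and in all 3 replicates in 3, or 7.69%, beside 1.51%. HNRNPC, a protein that binds U-rich introns, had 1 in each replicate. HNRNPM had 1, 2 and 1 and ELAVL1, a stabiliser of AU-rich transcripts, had 3, 1 and 2. The list's genes had a median of 9.33 intron clusters per replicate.

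Chromatin regulators, also 40 genes, had an intron cluster without exception. A long one was present in any replicate in 23, or 57.5%, and in all 3 in 6, or 15%. Besides ANKRD11 these included the methyltransferase NSD2 with 3, 2 and 1, ARID1A of the SWI/SNF complex with 2, 2 and 3, the methyltransferase DOT1L with 1, 3 and 1, and the acetyltransferase CREBBP with 1, 2 and 1. The median number of intron clusters in this list was 37.8, close to the 32.7 of the genes with long clusters in all replicates. Both lists were above the 17.1% and 1.51% of all genes and above their median of 4.33 intron clusters, and no test was made. The lists were chosen with earlier results of these data known, so their shares are description only.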

How the data were processed

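PAR-CLIP clusters of 3 replicates of wild-type HEK293 cells were analysed. Per the file headers, the authors deposited raw counts of reads, distinct reads, converted positions and conversion events, with the fraction of reads with T-to-C and of reads ending in G. Also deposited were a log10 conversion specificity and a mode score without a stated range, and neither was used. The genome build is hg38, per the submitters' processing notes, and every cluster sequence equalled hg38. The aligner, the cluster caller, the annotation release and the handling of reads with several matches are not given in the sources used here. Reads carry no molecular identifiers, so counts can include copies of 1 molecule.

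Members and lists were chosen with earlier results of these data known. Length was end minus start plus 1. Conversion was conversion events over conversion plus non-conversion events, and densities were counts per 1000 start positions. Flanks had the cluster's length and lay 200 nt to each side, without a check that they were intron. For differences within replicates, exact sign-flip permutation tests were run, two-sided (smallest p 0.25) and with Benjamini-Hochberg adjustment over 8 tests. The measures of the differences, not the tests, were tried on simulated clusters with known values. A 5-mer counted as denser or rarer when 1 density exceeded the other by over 25% in each replicate, after adding 0.5 to each count. Exons came from GENCODE 44 and current symbols from RefSeq (GRCh38.p14). Repeats were counted as 20-mers with at least 10 copies and by blastn 2.17.0 to RN7SL1 (e-value 1e-5), for every 50th short cluster. Genes named were the 10 with the largest geometric mean of long clusters, MATR3 and the PTBP genes, the longest cluster of each replicate, loci shared by all replicates, and the 10 leading 5-mers with ATCTT. Other 5-mers were chosen after their values were seen. Python 3.11.15, numpy 2.4.6, pandas 2.3.3, pysam 0.24.0, numba 0.67.0 and matplotlib 3.10.9 were used. The values of 1 listed gene are not reported here.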

Additional observations from a re-analysis of the deposited data

How the results depend on the processing

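The 8 tested differences were recomputed under 94 alternatives in all, of which 93 kept the direction of the mean. Not all of these could have changed it. Each difference had the same sign in 3 of 3 replicates, so leaving a replicate out could not turn it. For both comparisons with flanks, the minimum of 5 distinct reads removed no cluster and gave the main value again. The share of T in long minus short clusters turned to 0.130 percentage points with short clusters of the same genes. In 22 the value moved by over 1.5 times. The difference in pyrimidine share between long and short clusters ranged from 0.232 to 3.26, and that between long clusters and flanks from 4.30 to 6.55. For centres found elsewhere the range was 0.127 to 27.7, the latter with any overlap, where the length of a cluster raises its chance. For partners it was 18.6 to 29.1, and for exons within reach 2.77 to 14.4, the latter within 2000 nt. Log2 ratios of ATCTT were -0.48 to -0.053 against short clusters and 0.40 to 0.68 against flanks. For the other moves the cause was not tested.

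Counts moved with the rule. Genes with a long cluster in all replicates were 916 from 100 nt, 31 from 200 nt and 20 with at least 2 long clusters each, and 272 to 352 when a replicate was left out and 2 were asked for. Long clusters that recurred as long were 96, 3 and 10 from 100 nt, from 200 nt and with 50% overlap of both, and 90 to 139 with a replicate left out. A minimum of 5 distinct reads removed no long cluster. The planned share of repeat-masked bases was not run, since the reference used here marks no repeats. The distance over 5000 nt from the gene start was added after the data were seen. No samples could be paired across groups, because there is only 1 group of samples. The tested differences were taken within each replicate, so each test was paired by replicate. With 3 replicates, no test could pass 0.05.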
